A study of Mus musculus with 44 samples.

Results

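Secreted Wnt antagonists were examined in fibroblasts sorted from mouse mammary glands and mammary tumors. The set comprised 8 genes, Sfrp1, Sfrp2, Sfrp4, Sfrp5, Frzb, Dkk2, Dkk3 and Wif1, taken by their symbols from a table of read counts for 55486 genes. All recipients were En1-Cre;mTmG mice, in which GFP marks cells that have expressed the En1-driven Cre recombinase and their descendants, and tdTomato marks the other cells of the host. They carried transplanted mammary tissue of 3 kinds. Control tissue came from donors without WapCre, WB1P tissue from donors with mammary-specific loss of Brca1 and Trp53 driven by WapCre, and WB1P-Myc tissue from donors with the same deletions and a Col1a1-targeted Myc transgene. The titles call the control samples wildtype. For control transplants in these recipients the paper names WapCre-negative Cdh1F/F;PtenF/F donors. Tumors were taken at end stage by the design text, and control glands from mice of matching age. Of the WB1P-Myc mice, 2 carry the mark 8x8 in their titles. In the study's methods that number of millimetres on each side defines an advanced rather than an end-stage tumor of these models, but the labels do not say whether the mark is a tumor size. Fibroblasts, defined as EpCAM−/CD49f−/CD31−/CD45− cells, were sorted by surface CD26 and by GFP into En1+, CD26+, double+ and double− populations. The sort shows only whether a cell descends from the En1 lineage, and the fat pads of these recipients were not cleared of their own gland. The 44 libraries come from 13 mice, 3 with control tissue (normal fibroblasts, NFs), 5 with WB1P tumors and 5 with WB1P-Myc tumors (cancer-associated fibroblasts, CAFs).

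Wnt proteins are secreted ligands that bind Frizzled receptors together with the co-receptors Lrp5 or Lrp6, and in the canonical branch they stabilize beta-catenin, which then activates genes together with TCF/LEF factors. Secreted antagonists act outside the cell. The secreted frizzled-related proteins, to which Sfrp1, Sfrp2, Sfrp4, Sfrp5 and Frzb (also called Sfrp3) belong, carry a domain like the ligand-binding part of Frizzled and bind Wnt ligands, and Wif1 binds ligands through a different domain. Dkk2 binds Lrp5 and Lrp6 and blocks the co-receptor, whereas Dkk3 is the most divergent Dickkopf protein and its place in the pathway is less clear. Fibroblasts of many tissues are known sources of these proteins.

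For each mouse, counts were summed over the CD26− libraries (En1+ and double−) and over the CD26+ libraries (CD26+ and double+), which gave 25 sums. There were 3 CD26− and 3 CD26+ sums of control, 5 and 4 of WB1P, and 5 and 5 of WB1P-Myc, with the replicate number standing for the mouse. Depth was 5790599 to 15240328 counts per library, and the sums held 5790599 to 29498005 counts. The shallowest sum, WB1P CD26+ replicate 6, was a single library. Dpp4, which encodes CD26, lay between 0.619 and 17.6 CPM (the count scaled to the library total) in the CD26− sums and between 222.8 and 845.5 CPM in the CD26+ sums. En1 was measured in every population, from 4.45 ± 0.532 CPM in control double− to 38.3 ± 20.8 CPM in WB1P double+ libraries (SD, n = 3 and 4). Markers of fibroblasts (Col1a1, Col1a2, Dcn, Lum, Pdgfra, Pdgfrb) summed to 20770 to 52590 CPM in the 25 sums, and 7 epithelial markers to 4.67 to 194 CPM. The labels do not say whether the control mice with a pair of numbers were 1 animal or 2 pooled ones, and each pair was counted as 1 mouse. As these are bulk samples, fewer cells of a type and less RNA per cell cannot be told apart.

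Of the 8 genes, 7 passed the filter on low counts, the exception being Sfrp5. In order of level per kilobase of exon (CPM per kb, means over mice), Sfrp2 stood first in all 6 groups, from 53.0 ± 5.34 in control CD26− to 292 ± 79.8 in WB1P-Myc CD26+ fibroblasts (SD, n = 3 and 5). In the CD26+ groups Sfrp4 and Sfrp1 came next. Their ranges over mice overlapped in control (22.4 to 84.6 and 30.5 to 34.7 CPM per kb) and in WB1P-Myc (94.5 to 213.9 and 77.3 to 130.2). In WB1P CD26+ fibroblasts Sfrp4 stood at 178 ± 66.4 and Sfrp1 at 82.5 ± 9.54 CPM per kb (n = 4), and the ranges over mice did not overlap. Dkk2 at 22.4 ± 5.48 and Dkk3 at 21.8 ± 6.98 CPM per kb in the same cells differed by less than their spread. In control CD26− fibroblasts Sfrp2, Sfrp1 at 45.1 ± 1.88 and Dkk3 at 44.8 ± 4.08 CPM per kb led, and Sfrp1 and Dkk3 differed by less than their spread. The ranges of Sfrp2 and Sfrp4 over mice overlapped in WB1P CD26+ fibroblasts (197.3 to 395.0 and 113.3 to 269.7 CPM per kb). In the CD26− groups Sfrp2 did not stand clear of the other genes over mice either. It overlapped with Dkk3 in control and WB1P (112.5 ± 70.4 for Sfrp2 and 74.3 ± 13.6 CPM per kb for Dkk3 in WB1P) and with Sfrp1 in WB1P-Myc CD26− fibroblasts (154 ± 60.5 and 105.7 ± 31.3 CPM per kb). Frzb did not exceed a mean of 4.23 ± 2.30 CPM per kb (WB1P CD26−, n = 5), and Wif1 did not exceed 3.16 ± 2.84 CPM per kb (control CD26−, n = 3). All 8 genes together made up 518 ± 8.84 CPM in control CD26− sums, 671 ± 134 in control CD26+, 969 ± 280.0 in WB1P CD26−, 1874 ± 323 in WB1P CD26+, 1249 ± 315 in WB1P-Myc CD26− and 1929 ± 160.2 in WB1P-Myc CD26+ sums.

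**Figure D1:**
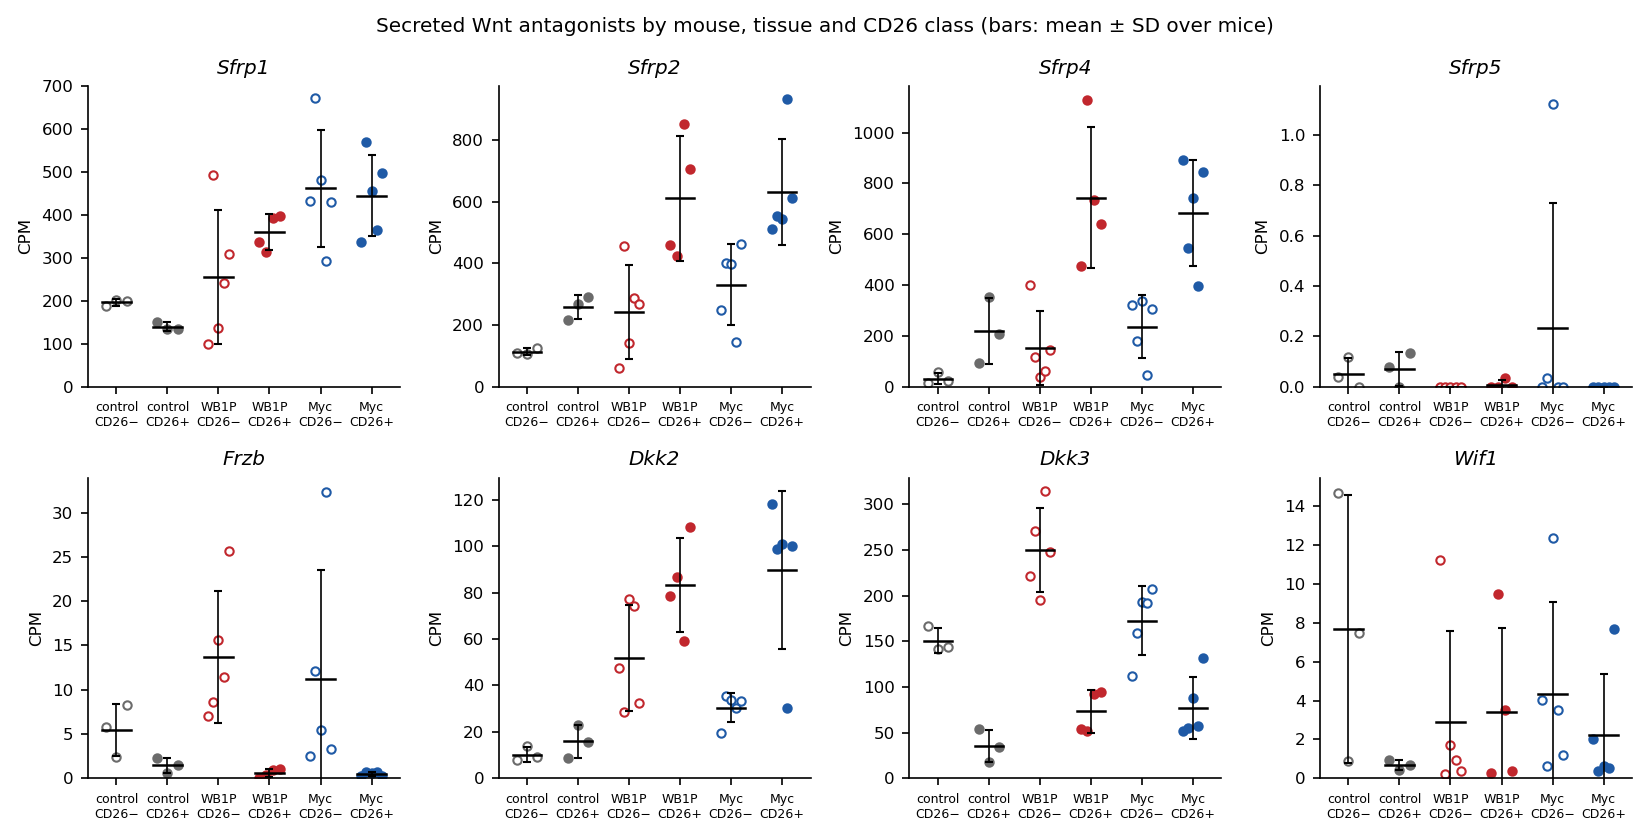
CPM of each gene (vertical axes, linear and different between panels) by tissue and CD26 class, with 1 point per mouse, open for CD26− and filled for CD26+, and lines for the mean and SD; "Myc" stands for WB1P-Myc. Sfrp4 and Sfrp2 sat higher in the CD26+ sums of each tissue, Frzb and Dkk3 higher in the CD26− sums, and Sfrp5 reached 1.12 CPM in 1 mouse only.

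In the mouse genome (GRCm38) the genes are spread over 7 chromosomes, and only Sfrp2 (chr3:83766321-83774316) and Dkk2 (chr3:132085292-132180304), both on the plus strand, share one. Frzb (chr2:80411970-80447625) lies on the minus strand. Sfrp2 overlaps Gm26771, annotated on the opposite strand, and the sources used here do not state whether counting used the strand, but Gm26771 had at most 7 counts in any sum. Promoter sequences from RefSeq (GRCm38.p6) were found for 5 of the 8 genes, Sfrp2, Sfrp5, Frzb, Dkk2 and Wif1, and not for Sfrp1, Sfrp4 and Dkk3. The 250 bases before the RefSeq start site, written 5′ to 3′ on the strand of the gene, are shown for a gene that was higher in CD26+ fibroblasts (Sfrp2), a gene that was higher in CD26− fibroblasts (Frzb) and a gene that was higher in CAFs (Dkk2). Capitals mark a match to the TCF/LEF core CTTTGA or to TATAAA, each searched on both strands together with the AP-1 site TGANTCA. The windows lie at chr3:83766071-83766320 (plus strand), chr2:80447397-80447646 (minus strand) and chr3:132085042-132085291 (plus strand). The RefSeq start of Frzb lies inside the gene span given above, so that most of its window is within the gene as annotated there, and the Wif1 window, not shown, also reaches into its gene.
Sfrp2: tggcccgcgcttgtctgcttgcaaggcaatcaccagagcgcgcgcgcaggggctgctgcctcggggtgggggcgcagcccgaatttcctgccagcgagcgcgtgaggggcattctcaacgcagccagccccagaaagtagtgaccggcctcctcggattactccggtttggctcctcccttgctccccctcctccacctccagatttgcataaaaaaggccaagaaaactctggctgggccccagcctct
Frzb: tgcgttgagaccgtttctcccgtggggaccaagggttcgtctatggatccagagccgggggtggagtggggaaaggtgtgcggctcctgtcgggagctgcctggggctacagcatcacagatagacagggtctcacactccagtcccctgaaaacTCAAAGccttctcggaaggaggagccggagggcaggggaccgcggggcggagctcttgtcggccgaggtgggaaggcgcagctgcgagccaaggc
Dkk2: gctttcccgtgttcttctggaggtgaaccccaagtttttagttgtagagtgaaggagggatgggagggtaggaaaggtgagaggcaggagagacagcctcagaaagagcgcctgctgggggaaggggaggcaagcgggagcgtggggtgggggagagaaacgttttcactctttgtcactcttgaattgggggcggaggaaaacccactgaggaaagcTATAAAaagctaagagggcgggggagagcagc
The Frzb window held 1 TCF/LEF core, read on the opposite strand, 95 bases before the RefSeq start, and 13.8% of the 32851 RefSeq promoters of this length held at least 1. The Dkk2 window held 1 TATAAA 32 bases before the RefSeq start, a motif found in 12.4% of promoters. Sfrp2 held none of the 3 motifs, of which the AP-1 site occurs in 6.75% of promoters. The Sfrp2 and Frzb windows each held 16 CpG dinucleotides, the Dkk2 window held 7, and the median over all promoters was 6. Wif1 held 21 CpG dinucleotides and 1 TATAAA, and Sfrp5 held 13 and none of the 3 motifs.

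Differences below are log2 fold changes with SE from edgeR's quasi-likelihood test on the sums, with Benjamini-Hochberg adjusted p-values over 16601 genes, and a gene was called at an adjusted p under 0.05. The first comparison was between CD26+ and CD26− fibroblasts of the same tissue. In control NFs, Sfrp4 rose and Dkk3 fell with CD26, and in the CAFs of both tumor models Sfrp4 and Sfrp2 rose while Frzb and Dkk3 fell. Dkk2 rose in WB1P-Myc CAFs. Of the 8 genes, 1 was called higher and 1 lower in CD26+ cells of control glands, where 2.67% of all genes tested were called higher and 1.49% lower. In WB1P tumors 2 were called higher and 2 lower, against 13% of all genes in each direction. In WB1P-Myc tumors 3 were called higher and 2 lower, against 9.29% and 10.7%. The median log2 difference of the 7 tested genes was -0.42, 0.58 and 0.11, beside -0.02, 0.01 and -0.01 over all genes.

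Sfrp4 is best known as a Wnt antagonist of bone, endometrium and stroma. In control mice 1, 2 and 3 it stood at 15.2, 58.2 and 22.9 CPM in CD26− and at 93.8, 354 and 207 CPM in CD26+ fibroblasts. Every CD26+ value lay above every CD26− value, and the ratio within a mouse was 6.08 to 9.03. This was a log2 difference of 2.82 (SE 0.73, adjusted p = 0.0276). In WB1P mice 4 to 8, Sfrp4 measured 400.4, 117, 39.7, 61.4 and 145 CPM in CD26− CAFs, and in mice 5 to 8 it measured 474, 1127, 733 and 639 CPM in CD26+ CAFs. Replicate 4, which has no CD26+ sum, gave the highest CD26− value, and the classes did not overlap. Here the log2 difference was 2.39 (SE 0.57, adjusted p = 0.00379), with within-mouse ratios of 4.05 to 28.4, and it was 3.12 without replicate 4. In WB1P-Myc mice 9 to 13, Sfrp4 measured 320.4, 179, 336, 45.4 and 305 CPM in CD26− and 894, 548, 741, 395 and 845 CPM in CD26+ CAFs. The classes again did not overlap, and replicate 12 was lowest in both. In these tumors the log2 difference was 1.74 (SE 0.54, adjusted p = 0.0255). It was higher in CD26+ cells in 3 of 3, 4 of 4 and 5 of 5 mice. The call in control glands was lost when only the control sums were fitted (2.81, adjusted p = 0.108) and without control replicate 1 (2.83, adjusted p = 0.0939), 2 (3.06, 0.0942) or 3 (2.66, 0.2555), and that in WB1P-Myc tumors without WB1P-Myc replicate 9, 10, 11, 12 or 13 (1.62 to 1.86, adjusted p = 0.0531 to 0.0839) or the 2 mice marked 8x8 (1.63, 0.125).

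Sfrp2, the transcript with the highest mean level per kilobase in each group, binds Wnt ligands and is widely used as a fibroblast marker. In control mice it stood at 109.9, 105 and 127 CPM in CD26− and at 218, 267 and 291 CPM in CD26+ NFs. These classes did not overlap, and the log2 difference of 1.24 (SE 0.49) had an adjusted p of 0.201. In WB1P mice 4 to 8 the CD26− values were 59.4, 455, 140.4, 287 and 269 CPM, and in mice 5 to 8 the CD26+ values were 461, 425, 850.5 and 705 CPM. Replicate 5 stood at about the same level in both classes (ratio 1.01), and the ratio was 2.625 to 3.03 in the others. In WB1P-Myc mice 9 to 13, Sfrp2 measured 249.6, 401, 397, 144 and 462 CPM in CD26− and 512, 554, 543, 930.5 and 610.1 CPM in CD26+ CAFs, without overlap. The log2 difference was 1.41 (SE 0.40, adjusted p = 0.0114) in WB1P and 1.11 (SE 0.38, adjusted p = 0.0396) in WB1P-Myc tumors. Sfrp2 was higher in CD26+ cells in all 12 mice with both classes. The WB1P call was lost without WB1P replicate 7 (1.30, adjusted p = 0.0542) or when only the WB1P sums were fitted (1.40, 0.0615), and fitting only the control sums gave a call in control (1.25, 0.0244). The WB1P-Myc call was lost without WB1P-Myc replicate 9 (1.06, 0.128), 11 (1.21, 0.0694) or 12 (0.72, 0.260), without WB1P replicate 8 or any 1 control mouse (1.10 to 1.12, adjusted p = 0.0511 to 0.0569), without the 2 mice marked 8x8 (0.81, 0.302) and without the filter on low counts (1.11, 0.0519).

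Frzb, the frizzled-related protein first described in cartilage, ran the other way. In control mice it measured 5.84, 2.41 and 8.23 CPM in CD26− and 2.265, 0.595 and 1.56 CPM in CD26+ NFs, without overlap. The log2 difference was -1.81 (SE 0.81, adjusted p = 0.295), and with mouse as a paired factor it was -1.84 (adjusted p = 0.0106). In WB1P mice 4 to 8 the CD26− values were 7.04, 8.61, 15.6, 11.5 and 25.65 CPM, and in mice 5 to 8 the CD26+ values were 0.0777, 0.345, 0.883 and 1.05 CPM. In WB1P-Myc mice 9 to 13 Frzb measured 2.56, 12.2, 5.46, 32.3 and 3.35 CPM in CD26− and 0.25, 0.742, 0.583, 0.686 and 0.267 CPM in CD26+ CAFs. The highest CD26+ value lay below the lowest CD26− value in each tumor model. CD26+ sums held 2 to 29 Frzb counts in WB1P and 6 to 16 in WB1P-Myc tumors, so that each CD26+ value rests on few reads. The log2 difference was -4.34 (SE 0.79, adjusted p = 3.1e-04) in WB1P and -4.40 (SE 0.73, adjusted p = 1.3e-04) in WB1P-Myc tumors. Frzb was lower in CD26+ cells in all 12 mice. Without WB1P-Myc replicate 12, which had the most Frzb in CD26− cells, the WB1P-Myc value was -3.61 and still called.

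Dkk3 was the other gene with a higher level in CD26− cells. Control mice had 166, 142 and 144 CPM in CD26− and 53.8, 17.9 and 34.5 CPM in CD26+ NFs. In WB1P mice 4 to 8 Dkk3 measured 221, 270.1, 195, 314 and 247 CPM in CD26− and, in mice 5 to 8, 54.5, 51.3, 92.4 and 94.4 CPM in CD26+ CAFs. Neither of these pairs of classes overlapped. In WB1P-Myc mice 9 to 13 the values were 112, 159, 193, 191.5 and 207 CPM in CD26− and 51.4, 55.1, 88.1, 57.8 and 132 CPM in CD26+ CAFs, and the CD26+ value of replicate 13 lay above the CD26− value of replicate 9. Dkk3 was lower in CD26+ cells in all 12 mice. The log2 difference was -2.0 (SE 0.38, adjusted p = 0.00236) in control, -1.67 (SE 0.31, adjusted p = 4.1e-04) in WB1P and -1.01 (SE 0.28, adjusted p = 0.0134) in WB1P-Myc. The last call was lost without WB1P-Myc replicate 12 (-0.87, adjusted p = 0.0759) and without the 2 mice marked 8x8 (-1.05, 0.0515), and the control call when only the control sums were fitted (-2.01, 0.0737).

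Pericyte markers moved with these differences in the tumors. The 7 markers (Rgs5, Cspg4, Mcam, Kcnj8, Abcc9, Higd1b and Notch3) summed to 210.0 to 400.0 CPM in CD26− and 162 to 199 CPM in CD26+ NFs. In WB1P tumors they summed to 1815 to 5320 CPM in CD26− and 163 to 307 CPM in CD26+ CAFs, and in WB1P-Myc tumors to 2554 to 10560 and 145 to 325 CPM. Of the 7, 5 fell with CD26 in WB1P, 7 in WB1P-Myc and 1 (Rgs5) in control fibroblasts, and none of the markers was at 0 counts throughout any group. Within the CD26− CAFs the sum was 5320, 1815, 2402, 1823 and 2722 CPM in WB1P mice 4 to 8 and 10560, 3230, 4854, 4304 and 2554 CPM in WB1P-Myc mice 9 to 13. In the same order of mice, Frzb was 7.04, 8.61, 15.6, 11.5 and 25.65 CPM in WB1P and 2.56, 12.2, 5.46, 32.3 and 3.35 CPM in WB1P-Myc. Dkk3 was 221, 270.1, 195, 314 and 247 CPM in WB1P and 112, 159, 193, 191.5 and 207 CPM in WB1P-Myc. The CD26− sums of replicates 4, 9 and 11 were single libraries. The part of pericytes in the CD26 differences of Frzb, Dkk3 and the other antagonists was not tested. The sum of 6 endothelial markers was also higher in CD26+ cells, at 178 to 543 CPM in CD26+ and 36.9 to 62.3 CPM in CD26− NFs, and at 69.25 to 173 CPM in CD26+ and 17.2 to 86.5 CPM in CD26− CAFs. Of these 6 markers, Tek rose with CD26 in all 3 tissues and Kdr in both tumor models, whereas Emcn fell in both tumor models and Tie1 and Cdh5 fell in WB1P-Myc. Their part in the differences of Sfrp4 and Sfrp2 was not tested either.

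**Figure D2:**
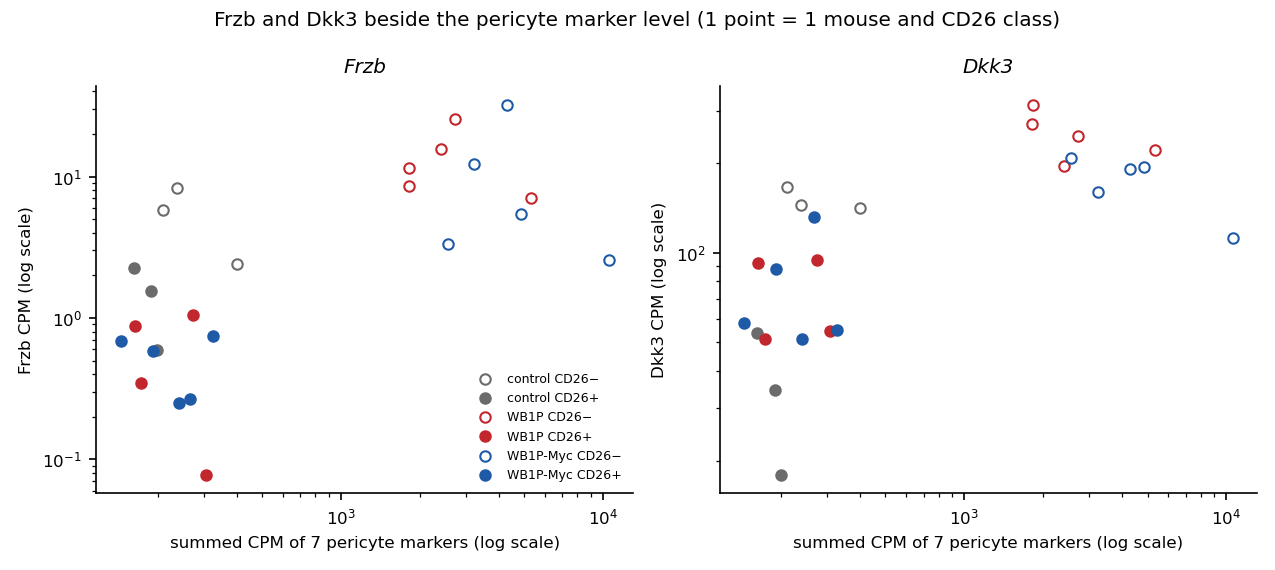
CPM of Frzb and Dkk3 (vertical axes, log scale) against the summed CPM of 7 pericyte markers (horizontal axes, log scale), with 1 point per mouse and CD26 class. CD26− CAFs stand apart on the right, between 1815 and 10560 CPM of pericyte markers, and among them Frzb ranges from 2.56 to 32.3 CPM and Dkk3 from 112 to 314 CPM.

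Dkk2, the blocker of the Lrp co-receptors, measured 7.98, 13.7 and 8.96 CPM in CD26− and 8.905, 23.1 and 15.8 CPM in CD26+ NFs, with overlap between the classes. Its log2 difference there was 0.70 (SE 0.43, adjusted p = 0.538). In WB1P mice 4 to 8 Dkk2 stood at 47.4, 28.4, 77.05, 74.15 and 32.6 CPM in CD26− and, in mice 5 to 8, at 78.35, 86.5, 59.3 and 108 CPM in CD26+ CAFs. The classes overlapped, and replicate 7 had less in CD26+ cells (log2 difference 0.80, SE 0.34, adjusted p = 0.0869, and 1.11, 0.0448 without replicate 7). In WB1P-Myc mice 9 to 13 it stood at 19.5, 35.4, 33.7, 30.5 and 33.3 CPM in CD26− and at 118, 98.8, 101, 30.4 and 100.1 CPM in CD26+ CAFs. Replicate 12 had the same level in both classes, and the other 4 mice had at least 2.79-fold more in CD26+ cells. This gave a log2 difference of 1.72 (SE 0.33, adjusted p = 6.4e-04).

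Sfrp1, an early described antagonist whose loss is known from breast carcinomas, was not called between CD26 classes. Its log2 difference was -0.42 (SE 0.39, adjusted p = 0.776) in control, 0.58 (SE 0.32, adjusted p = 0.185) in WB1P and 0.11 (SE 0.30, adjusted p = 0.860) in WB1P-Myc. The control classes did not overlap, at 188, 203 and 201 CPM in CD26− and 152, 133.5 and 136 CPM in CD26+ NFs, a ratio of 0.658 to 0.808 within a mouse. In CD26+ CAFs Sfrp1 measured 337, 314, 394 and 398 CPM in WB1P mice 5 to 8 and 338, 569, 456, 366 and 498 CPM in WB1P-Myc mice 9 to 13, within the range of the CD26− CAFs of the same model. Sfrp1 was higher in CD26+ cells of 3 of 4 WB1P mice, and without replicate 5, the exception, the log2 difference was 0.99 (adjusted p = 0.0151).

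Wif1 varied widely between mice. Its CD26− values were 14.65, 0.869 and 7.5 CPM in control mice, 11.2, 0.239, 1.71, 0.961 and 0.384 CPM in WB1P mice 4 to 8, and 4.01, 0.619, 12.4, 3.53 and 1.18 CPM in WB1P-Myc mice 9 to 13. The CD26+ values were 0.921, 0.437 and 0.678 CPM in control mice, 0.272, 9.50, 3.53 and 0.362 CPM in WB1P mice 5 to 8, and 2.00, 0.371, 0.655, 0.514 and 7.67 CPM in WB1P-Myc mice 9 to 13. Every group but the control CD26+ sums held mice that differed several-fold. The log2 difference between classes was -3.43 (SE 1.5, adjusted p = 0.274) in control, 0.23 (SE 1.16, adjusted p = 0.911) in WB1P and -0.69 (SE 1.06, adjusted p = 0.721) in WB1P-Myc. The sign in WB1P turned without replicate 6 (-1.07) or 7 (-0.06), and that in WB1P-Myc without replicate 11 (0.37).

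Sfrp5 had few or no counts in these libraries. WB1P CD26− sums held 0 counts of 113217695, which allows up to 0.0265 CPM at 3 counts, and WB1P-Myc CD26+ sums held 0 of 96980124, which allows up to 0.0309 CPM. These limits cover counting error only. Control sums held 4 counts in CD26− and 6 in CD26+ NFs, and WB1P CD26+ sums held 1. Among WB1P-Myc CD26− sums, 14 of the 15 counts came from replicate 11, which reached 1.12 CPM.

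**Figure D3:**
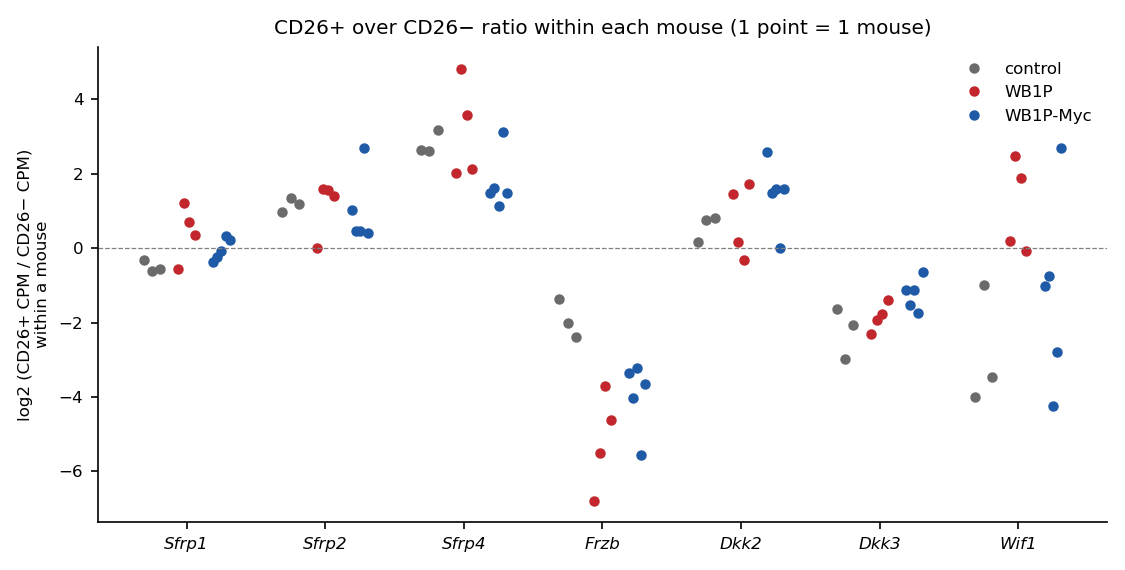
Log2 ratio of CD26+ to CD26− CPM within each mouse (vertical axis) for the 7 genes tested, with 1 point per mouse coloured by tissue; the dashed line marks equal levels. All Sfrp4 points lie above 0, all Frzb and Dkk3 points lie below 0, and Wif1 points lie on both sides in the tumors.

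Whether the CD26 difference itself differed between tissues was tested by the interaction. None of the 7 genes was called by edgeR, where 1.86% of all genes were called for WB1P against control, 1.16% for WB1P-Myc against control and 0.0% for WB1P-Myc against WB1P. At an unadjusted p under 0.05 there were 1, 2 and 0 of the 7, beside 2233, 1611 and 549 of 16601 genes. DESeq2's Wald test called 0 of the 7 in each, beside 651, 414 and 2 genes. For Frzb the difference of log2 differences was -2.53 (SE 1.08, adjusted p = 0.294) for WB1P and -2.59 (SE 1.06, adjusted p = 0.374) for WB1P-Myc, each against control. With mouse as a paired factor the WB1P value was -2.72 (adjusted p = 0.0195). For Dkk3 the values were 0.33 (SE 0.47, adjusted p = 0.830) and 0.99 (SE 0.46, adjusted p = 0.483), and for Sfrp4 -0.43 (SE 0.89, adjusted p = 0.897) and -1.08 (SE 0.87, adjusted p = 0.836). The sign of the WB1P value of Sfrp4 turned with mouse as a paired factor (0.35) and without WB1P replicate 4 (0.30).

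The second comparison set CAFs against NFs of the same CD26 class. Sfrp1, Sfrp2, Sfrp4, Dkk2 and Dkk3 rose in the CD26+ CAFs of both models, and none of the 7 tested genes was called lower in any of the 4 comparisons. In CD26− CAFs, Sfrp2, Sfrp4 and Dkk2 rose in both models, Dkk3 in WB1P and Sfrp1 in WB1P-Myc. That is 4 of the 8 genes called higher in CD26− CAFs of WB1P and 4 in those of WB1P-Myc, where 17.6% and 19.1% of all genes were called higher and 17.8% and 17.5% lower. It is 5 of the 8 called higher in CD26+ CAFs of each model, where 17.4% of all genes were called higher in both and 16.1% and 17.3% lower. The median log2 difference of the 7 tested genes was 1.25, 1.21, 1.54 and 1.74 in these 4 comparisons, beside 0.00, 0.02, 0.00 and -0.01 over all genes. The 2 comparisons of a class share the same 3 control mice. Of the 6 fibroblast markers, Pdgfra, Dcn and Lum fell in CD26− CAFs of both models. Col1a1 and Col1a2 rose in CD26− CAFs of WB1P and in CD26+ CAFs of both models, and Pdgfrb fell in CD26+ CAFs of WB1P. Between CD26 classes, Dcn rose and Pdgfrb fell with CD26 in both tumor models. Other cell markers also moved between CD26+ NFs and CAFs. The 6 endothelial markers summed to 358.5 ± 183 CPM in NFs, 126.5 ± 44.7 in WB1P and 125 ± 27.8 in WB1P-Myc CAFs, and 4 of them (Emcn, Tek, Tie1 and Cdh5) fell in each model. Immune markers summed to 24.5 ± 6.77, 72.4 ± 26.9 and 82.7 ± 85.7 CPM, and of the 7 tested Cd3e and Csf1r rose and Cd68 fell in each model. The part of these cells in the differences of the antagonists was not tested.

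Dkk2 had the largest log2 differences among the 5 genes in CD26+ CAFs. From 16.0 ± 7.12 CPM in CD26+ NFs (SD, n = 3) it went to 83.1 ± 20.3 CPM in WB1P (n = 4) and 89.7 ± 34.0 CPM in WB1P-Myc CAFs (n = 5), log2 differences of 2.58 (SE 0.43, adjusted p = 1.7e-04) and 2.60 (SE 0.42, adjusted p = 1.3e-04). All 9 CD26+ CAF sums lay above all CD26+ NF sums, the nearest being WB1P-Myc replicate 12 at 30.4 CPM against control replicate 2 at 23.1 CPM. In CD26− cells Dkk2 went from 10.2 ± 3.06 CPM in NFs to 51.9 ± 22.8 in WB1P and 30.5 ± 6.37 in WB1P-Myc CAFs, log2 differences of 2.47 (SE 0.42, adjusted p = 1.0e-04) and 1.58 (SE 0.40, adjusted p = 0.00434). None of these 4 calls was lost with another normalization, test or filter or without any 1 mouse, and the added limit of 2 on the log2 difference leaves out the last.

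Sfrp4 rose in CD26− cells from 32.1 ± 22.9 CPM in NFs to 153 ± 145 in WB1P and 237 ± 124 in WB1P-Myc CAFs, with log2 differences of 2.38 (SE 0.68, adjusted p = 0.00944) and 2.85 (SE 0.70, adjusted p = 0.00332). The groups overlapped, since WB1P replicate 6 (39.7 CPM) and WB1P-Myc replicate 12 (45.4 CPM) lay below control replicate 2 (58.2 CPM). The WB1P call was lost without control replicate 3 (2.18, adjusted p = 0.0591), and its value was 1.65 without WB1P replicate 4 and 3.15 without control replicate 2, both still called. The WB1P-Myc value was 3.6 without control replicate 2. In CD26+ cells Sfrp4 rose from 218 ± 130.3 CPM in NFs to 743 ± 277 in WB1P and 684 ± 209 in WB1P-Myc CAFs, without overlap, with log2 differences of 1.94 (SE 0.68, adjusted p = 0.0319) and 1.77 (SE 0.66, adjusted p = 0.0410). The WB1P call was lost without WB1P replicate 6 (1.68, adjusted p = 0.0697) or control replicate 1 (1.59, 0.1175) or 3 (1.89, 0.1075). The WB1P-Myc call was lost without control replicate 1 (1.43, 0.1495) or 3 (1.73, 0.1255) and without WB1P mouse 5 or 8 or any of the WB1P-Myc mice 9, 10, 11 and 13 (1.62 to 1.84, adjusted p = 0.0518 to 0.0772).

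Sfrp2 rose in both classes. In CD26− cells it went from 114 ± 11.5 CPM in NFs to 242 ± 152 in WB1P and 331 ± 130.1 in WB1P-Myc CAFs, log2 differences of 1.25 (SE 0.45, adjusted p = 0.0354) and 1.52 (SE 0.46, adjusted p = 0.0132). WB1P replicate 4, at 59.4 CPM, lay below all control mice. In CD26+ cells Sfrp2 went from 259 ± 37.5 CPM to 610.2 ± 203 and 629.8 ± 172 CPM, without overlap, log2 differences of 1.41 (SE 0.47, adjusted p = 0.0248) and 1.38 (SE 0.45, adjusted p = 0.0225). The WB1P call in CD26− cells was lost without WB1P replicate 5 (0.80, adjusted p = 0.134), 7 or 8 or any 1 control mouse (1.19 to 1.32, adjusted p = 0.0620 to 0.115) or when only these 2 groups were fitted (1.24, 0.116), and the WB1P-Myc call without control replicate 2 (1.47, 0.0561). In CD26+ cells the WB1P call was lost without WB1P replicate 7 or 8 or any 1 control mouse (1.25 to 1.49, adjusted p = 0.0555 to 0.0830), and the WB1P-Myc call without any 1 control mouse (1.31 to 1.47, adjusted p = 0.0644 to 0.0811) or the 2 mice marked 8x8 (1.14, 0.0787).

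Sfrp1 rose in CD26+ cells from 140.3 ± 9.96 CPM in NFs to 361 ± 41.7 in WB1P and 445 ± 95.0 in WB1P-Myc CAFs, with log2 differences of 1.54 (SE 0.38, adjusted p = 0.00406) and 1.74 (SE 0.37, adjusted p = 0.00142) and no overlap. In CD26− cells it measured 197 ± 8.23 CPM in NFs and 99.6, 493, 136, 242.5 and 308 CPM in WB1P mice 4 to 8, which spread to both sides of the control mice (log2 difference 0.54, SE 0.35, adjusted p = 0.245). In WB1P-Myc mice 9 to 13 Sfrp1 stood at 433, 672, 482.5, 293 and 429.9 CPM in CD26− CAFs, all above the control mice. That log2 difference was 1.21 (SE 0.36, adjusted p = 0.0120).

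Dkk3 rose in CD26+ cells from 35.4 ± 18.0 CPM in NFs to 73.1 ± 23.4 in WB1P and 76.9 ± 34.1 in WB1P-Myc CAFs, with overlap and log2 differences of 1.19 (SE 0.35, adjusted p = 0.0128) and 1.18 (SE 0.34, adjusted p = 0.0107). Both calls were lost without control replicate 2, at 0.88 (adjusted p = 0.0821) and 0.87 (0.0745), the WB1P call also without control replicate 3 (1.17, 0.0551), the WB1P-Myc call without the 2 mice marked 8x8 (0.94, 0.0513), and both when only the 2 groups were fitted (1.21, 0.0569, and 1.18, 0.0588). In CD26− cells it measured 151 ± 13.7 CPM in NFs, 249.6 ± 45.8 in WB1P and 173 ± 38.1 in WB1P-Myc CAFs. The WB1P value (0.86, SE 0.33, adjusted p = 0.0487) lay just inside the threshold and was outside it without any 1 of WB1P mice 4, 5, 7 and 8, control mice 2 and 3 and WB1P-Myc mice 10, 11 and 12 (0.77 to 0.91, adjusted p = 0.0511 to 0.143), and without the filter on low counts (0.88, 0.0595). For WB1P-Myc it was 0.19 (SE 0.33, adjusted p = 0.674). All 7 pericyte markers were called higher than in NFs in the CD26− CAFs of each model. Their part in the differences of Dkk3, Dkk2, Sfrp1, Sfrp2 and Sfrp4 in CD26− cells was not tested.

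Frzb and Wif1 were not called between CAFs and NFs. For Frzb the log2 difference in CD26− cells was 1.43 (SE 0.72, adjusted p = 0.127) in WB1P and 1.08 (SE 0.71, adjusted p = 0.238) in WB1P-Myc, and in CD26+ cells it was -1.10 (SE 0.81, adjusted p = 0.305) and -1.51 (SE 0.78, adjusted p = 0.136). Fitting only the 2 groups compared put the first of these (1.44, adjusted p = 0.0460) and the last (-1.51, 0.0486) past the threshold. For Wif1 the values were -1.36 (SE 1.18, adjusted p = 0.385), -0.92 (SE 1.17, adjusted p = 0.559), 2.29 (SE 1.43, adjusted p = 0.220) and 1.82 (SE 1.35, adjusted p = 0.303). The first was -3.10 (adjusted p = 0.0470) without WB1P replicate 4, whose 11.2 CPM stood apart from the other 4 WB1P mice.

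**Figure D4:**
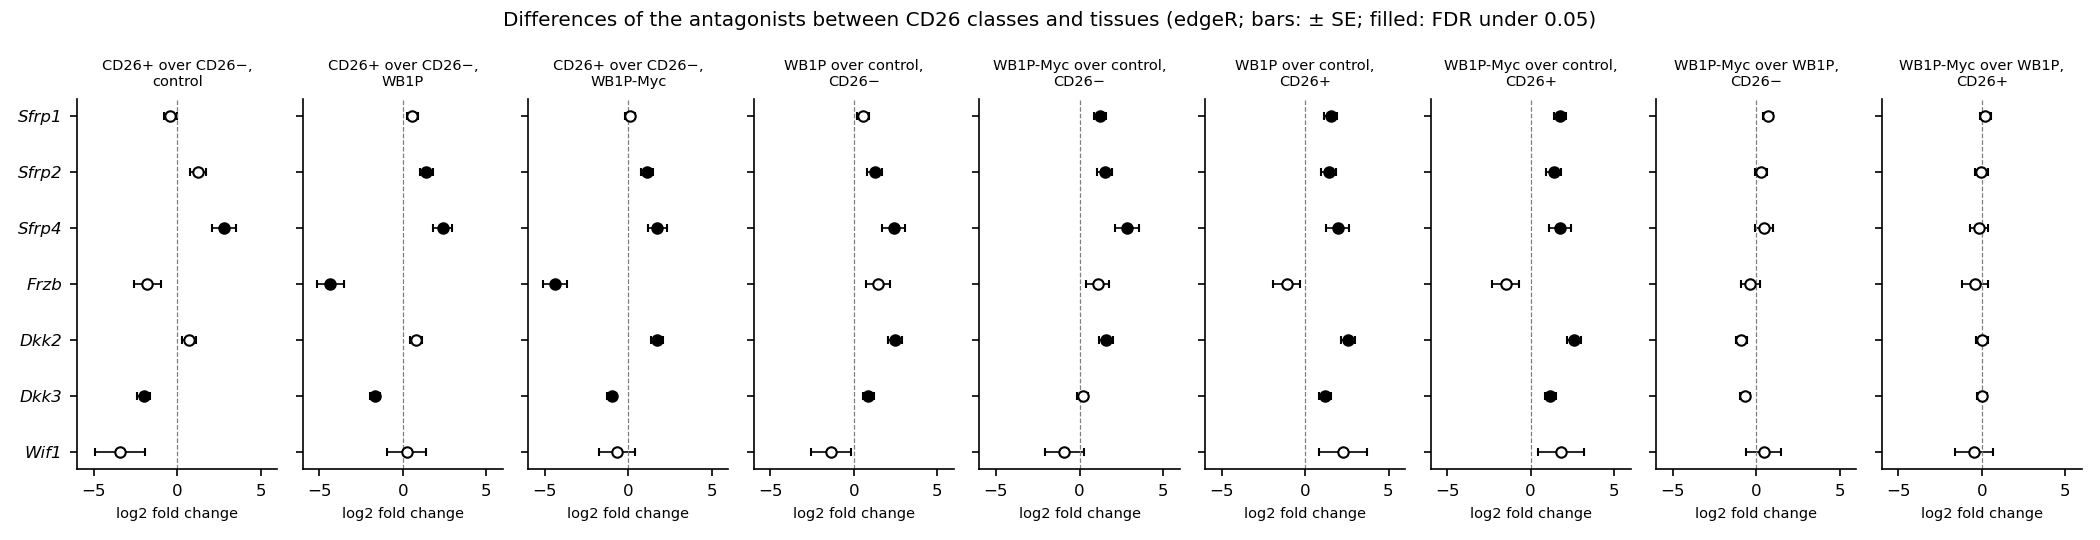
Log2 fold change (horizontal axes) of the 7 genes tested in 9 comparisons, with bars for ± SE and filled points at an edgeR adjusted p under 0.05. The 3 panels on the left compare CD26 classes, the 4 in the middle compare CAFs with NFs and the 2 on the right compare the tumor models, which have no filled point.

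Between the tumor models none of the 7 genes was called by edgeR or by DESeq2's Wald test in either class, where edgeR called 0.512% of all genes in CD26− and 0.0% in CD26+ CAFs. DESeq2's Wald test called 402 and 9 genes. At an unadjusted p under 0.05 there were 3 of the 7 in CD26− and 0 in CD26+ CAFs, beside 2405 and 646 of 16601 genes. In CD26− CAFs these were Dkk2 (-0.90, SE 0.33, adjusted p = 0.207), Dkk3 (-0.67, SE 0.28, adjusted p = 0.270) and Sfrp1 (0.68, SE 0.30, adjusted p = 0.298), signed as WB1P-Myc over WB1P. In CD26+ CAFs the 95% interval of the log2 difference ran from -0.65 to 0.69 for Dkk2, from -0.60 to 0.57 for Dkk3, from -0.80 to 0.75 for Sfrp2 and from -1.27 to 0.92 for Sfrp4. For Sfrp1 it ran from -0.42 to 0.83, for Frzb from -1.97 to 1.15 and for Wif1 from -2.73 to 1.78.

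The En1 lineage was compared on the single libraries, GFP+ over GFP− within a CD26 class, as a mean over the 3 tissues and 15584 tested genes. No antagonist was called in CD26− or CD26+ fibroblasts by edgeR, which called 0.00642% and 0.0128% of all genes. At an unadjusted p under 0.05 there were 0 of the 7 in either class, beside 537 and 280 of 15584 genes. DESeq2's Wald test called 0 of the 7, beside 16 and 4 genes. In CD26− fibroblasts Sfrp4 was lower in the En1+ than in the double− library of all 10 mice with both, with a log2 difference of -0.38 (SE 0.39, adjusted p = 1.0), and with mouse as a paired factor the difference was -0.73 (adjusted p = 0.302). Sfrp2 was lower in 9 of those 10 mice (-0.43, SE 0.25, adjusted p = 1.0) and Sfrp1 in 8 (-0.26, SE 0.21, adjusted p = 1.0). In control mice Sfrp2 stood at 86.7 ± 9.06 CPM in En1+ and 140.1 ± 14.8 CPM in double− libraries, and at 210.0 ± 40.7 CPM in double+ and 308 ± 41.7 CPM in CD26+ libraries (n = 3 each), without overlap within either class. In CD26+ fibroblasts Sfrp4 was lower in the double+ library in 6 of 9 mice (0.02, SE 0.40, adjusted p = 1.0).

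Genes whose log2 CPM followed the antagonists most closely over the 25 sums were taken from the 16601 tested, as a description over sums that share mice and groups. For Sfrp4 they were Nsg1 (Pearson r = 0.948) and Epdr1 (0.945), for Frzb Ephb6 (0.942) and Gng2 (0.934), and for Dkk3 Spon1 (0.940) and Cd59a (0.903). Dkk2 was nearest to Leprot (0.917) and Unc93a (0.892), Sfrp2 to Syk (0.893) and Loxl4 (0.891), and Sfrp1 to Saa1 (0.874) and Podn (0.853). Wif1 had no neighbour above 0.699 (2310033P09Rik), followed by Alox12 (0.688). After the group means were removed, Nsg1 kept an r of 0.885 with Sfrp4, while Leprot and Dkk2 had 0.390. Among the antagonists themselves, r over the 25 sums with group means removed was highest for Sfrp1 and Sfrp2 (0.802). It was lowest for Sfrp4 and Frzb (-0.662). These 2 pairs were picked from all pairs after values were seen.

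The rest of the pathway was described with lists of ligands, receptors, R-spondin genes, feedback targets, intracellular components and other antagonists. Of 19 Wnt ligands, 14 were tested. With CD26, 3 rose in control NFs, 5 rose and 3 fell in WB1P, and 5 rose and 3 fell in WB1P-Myc CAFs, with medians of -0.51, -1.06 and -0.10. Of all genes tested, 2.67% rose and 1.49% fell in control, 13% rose and 13% fell in WB1P, and 9.29% rose and 10.7% fell in WB1P-Myc, and the counts of the lists below stand beside the same shares. Wnt10b had the largest difference in all 3 tissues, with 0.0732 to 0.395 CPM in CD26− and 30.2 to 138 CPM in CD26+ NFs (log2 difference 8.68, SE 1.04, adjusted p = 1.8e-05), and with means of 1.14 and 30.2 CPM in WB1P and 1.45 and 34.5 CPM in WB1P-Myc. Of 16 receptors and co-receptors, all tested, Fzd10 rose with CD26 in both tumor models (0.709 to 5.77 and 0.543 to 6.77 CPM), 5 fell in WB1P and 1 (Ptk7) in WB1P-Myc, and none was called in control. Of 9 genes of the R-spondin axis, Lgr4, a receptor for R-spondins, rose with CD26 in all 3 tissues, and Rspo2, a ligand that strengthens Wnt signals, rose in both tumor models, from 0.340 to 2.11 CPM in WB1P and from 0.517 to 3.09 CPM in WB1P-Myc, whereas Rspo1, another such ligand, fell in WB1P.

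Feedback targets are genes that canonical signalling is known to induce. Of 17 listed, which include Wif1, 15 were tested, and 0 rose and 2 fell in control (Tnfrsf19 and Nkd2), 0 and 2 in WB1P (Tcf7 and Nkd2), and 0 and 4 in WB1P-Myc (Lef1, Ccnd1, Tcf7 and Nkd2). The summed CPM of the list, in which the most abundant genes weigh most, was higher in CD26+ than in CD26− cells on average. It was 505.5 ± 65.7 and 415.6 ± 18.2 CPM in control, 1446 ± 647 and 1224 ± 304 CPM in WB1P and 1113 ± 356 and 1017 ± 216 CPM in WB1P-Myc, with overlap in both tumor models. The median log2 differences of the tested targets were -0.57, -0.55 and -0.31, and members of the list were partly shared with other lists. Tcf7 stood at 9.69 CPM in CD26− and 1.24 CPM in CD26+ WB1P CAFs (log2 difference -2.85, SE 0.59, adjusted p = 0.00109). Porcn, which acylates Wnt ligands for secretion, was the 1 of 14 intracellular components that fell in both models, from 27.2 to 9.67 CPM in WB1P and from 20.5 to 10.55 CPM in WB1P-Myc CAFs. Tcf7l1, a factor of the TCF family, rose in both models, and Tcf7l2 of the same family rose in WB1P. Of 13 other antagonists and their partners, 8 were tested. Kremen1, a Dickkopf co-receptor, fell with CD26 in both models, from 304 to 165 CPM in WB1P-Myc, and Cer1, which fell in WB1P, had at most 7 counts in any WB1P sum.

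Between CAFs and NFs the feedback targets went in both directions. In CD26− cells 6 rose and 2 fell in WB1P and 6 rose and 3 fell in WB1P-Myc, and in CD26+ cells 5 rose and 1 fell, and 4 rose and 0 fell. In the same 4 comparisons 17.6%, 19.1%, 17.4% and 17.4% of all genes rose and 17.8%, 17.5%, 16.1% and 17.3% fell. Ccnd1, a cell cycle gene, went from 4.16 to 111 CPM in CD26− cells of WB1P-Myc, and Lgr5 from 1.63 to 16.1 and 28.8 CPM in CD26+ cells of WB1P and WB1P-Myc. Axin2, which is widely read as a canonical target, fell in 3 of the 4 comparisons, the exception being CD26+ cells of WB1P-Myc, and was named after its values were seen. All 5 proliferation markers rose in each of the 4 comparisons. Among the other antagonists, Draxin, which binds Lrp6, rose in all 4 and had 3 to 11 counts per CD26− NF sum, at 0.261 CPM on average, against 15.1 CPM in WB1P and 11.0 CPM in WB1P-Myc CAFs. Kremen1 rose in CD26− cells of WB1P, Apcdd1 in those of both models, Igfbp4 in CD26+ cells of both models and Notum in those of WB1P. Cer1, with at most 17 counts in any sum, fell in all 4, and Tpbg fell in CD26− cells of WB1P-Myc. Of 14 ligands tested, 6, 3, 3 and 2 rose and 4, 4, 2 and 2 fell in the 4 comparisons in that order. Wnt9a and Wnt7b rose in all 4, and Wnt9b fell in all 4. Wnt9b lay between 2.25 and 81.3 CPM in CD26− NFs and between 0.1985 and 52.8 CPM in CD26+ NFs, and had at most 8 counts in any CAF sum. Of 16 receptors, 3, 4, 2 and 3 rose and 6, 7, 3 and 2 fell. Ryk and Fzd6 rose and Fzd3 fell in all 4. Rspo1 fell in all 4, and in CD26− cells of WB1P-Myc it went from 23.8 to 1.38 CPM. Between the tumor models, 1 gene of these Wnt lists was called, Fzd4, at 35.5 CPM in WB1P and 122 CPM in WB1P-Myc CD26− CAFs (log2 difference 1.64, SE 0.34, adjusted p = 0.0358). The CD26 difference itself differed from control for Wnt2, Wnt16 and Wnt5a in both models and for Wnt5b in WB1P.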

How the data were processed

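Stranded mRNA libraries of sorted fibroblasts were sequenced by the authors, who deposited raw counts of reads per gene. The submitters' processing notes name HISAT2 2.2.1 and GRCm38. The counter and annotation are not given in the sources used here. Of 55487 rows, 1 names no gene and holds 0 counts. Counts of 44 libraries were summed per mouse and CD26 class (25 sums) and tested with edgeR 4.0.16 (R 4.3.3, limma 3.58.1): filterByExpr, TMM, glmQLFit and glmQLFTest over 6 groups, or 12 groups of single libraries for En1. SE is the log2 fold change divided by the square root of F. CPM use plain totals. Log2 CPM for similarity used a prior count of 2. Fits were tested on simulated counts drawn without a mouse effect. Of 100 genes given a log2 change of 2, 65 were recovered between CD26 classes of control and 76 in WB1P. The interaction of WB1P against control recovered 54, and En1 in CD26− cells 95. Labels give the mouse, so libraries of a mouse are paired. Deviations of its CD26 classes from group means correlated with r = 0.237 to 0.668 (12 pairs). The main fit has no mouse term. All 8 genes were named, with the 2 genes nearest to each of those with a mean of at least 1 CPM in some group, and pathway genes with the largest called difference per list. Genes named where a list had 5 or fewer calls, Axin2, and other genes of lists were chosen after values were seen. Members and lists were chosen with earlier results of these data known. Exon lengths came from GENCODE M21, in which 55140 of 55486 gene IDs were found. P-values rest on the spread between sums, or between single libraries for En1. The main fit treats these as independent, although a mouse can give several. Alternatives were DESeq2 1.42.0 (size factors, Wald test), no filter, mouse as a block, only the groups compared, an added log2 limit of 2, and mice left out. Figures were drawn with Python 3.11.15.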

Additional observations from a re-analysis of the deposited data

Results flagged for a closer look

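In groups of 4 or 5 mice, 1 mouse stood apart from the others (Dixon's test at 95%) in 6 of 29 gene and group combinations, where chance gives about 1.45. Sfrp5 stood at 1.125 CPM in the CD26− sum of WB1P-Myc replicate 11, against at most 0.0344 CPM in the other 4 mice, and 7 epithelial markers summed to 128.4 CPM in that sum, the highest of its group and near the 104.3 CPM of replicate 12. The sum of 5 Schwann cell markers was 74.01 CPM in replicate 11 and at most 16.79 CPM in the other 4 mice. Their part in the Sfrp5 value was not tested. Sfrp2 was at 930.5 CPM and Dkk2 at 30.43 CPM in CD26+ CAFs of WB1P-Myc replicate 12, where the nearest other mice had 610.1 and 98.82 CPM. That mouse is 1 of the 2 marked 8x8. Wif1 stood apart 3 times, at 11.22 CPM in CD26− CAFs of WB1P replicate 4 (nearest 1.714), at 12.37 CPM in CD26− CAFs of WB1P-Myc replicate 11 (nearest 4.007) and at 7.666 CPM in CD26+ CAFs of WB1P-Myc replicate 13 (nearest 2.00). The first and second are sums of 1 library each.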

How the results depend on the processing

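The 7 tested genes gave 98 log2 differences in 14 comparisons, of which 29 were called, and 1785 values under alternatives. Of these, 1659 kept direction and side of the threshold, 69 lost a call, 8 gained one and 49 turned sign, none of them a value called in the main fit. All 69 losses fall on the 29 called values, since the others had no call to lose. Losses were most frequent for Dkk3 in CD26− cells of WB1P against NFs (10 of 18 alternatives) and Sfrp2 between CD26 classes of WB1P-Myc (9 of 19). Calls of Dkk2, Frzb and Sfrp1 were not lost under these alternatives. With an added limit of 2 on the log2 difference, calls numbered 2 in WB1P between CD26 classes and 1 in WB1P-Myc, 2 and 1 for CD26− and 1 and 1 for CD26+ CAFs of WB1P and WB1P-Myc against NFs. Fitting only the 2 control groups gave 1 call between CD26 classes, Sfrp2, and neither of Sfrp4 and Dkk3, the 2 called with all groups fitted. Without the 2 mice marked 8x8, 2 genes were called between CD26 classes of WB1P-Myc and 3 between CD26+ CAFs of WB1P-Myc and NFs. With mouse as a replicate block, 1 gene (Frzb) was called for the CD26 difference of WB1P against control, and Frzb was called in control, so that 3 genes were called there. The block changed no other call among comparisons within mice, and comparisons between tissues cannot carry it, as each mouse has 1 tissue. Leaving out 1 mouse at a time, calls between CD26 classes numbered 1 to 2 in control, 4 to 5 in WB1P and 2 to 5 in WB1P-Myc. Against NFs they numbered 1 to 4 and 3 to 4 in CD26− and 2 to 5 and 3 to 5 in CD26+ CAFs of WB1P and WB1P-Myc. The cause was not tested. Fewer samples enter each of these fits.

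Signs turned only for values that were not called. Among them were Wif1, several values near 0, and Sfrp4 for the CD26 difference of WB1P against control (-0.43 in the main fit). Between CD26 classes the range over left-out mice was -1.07 to 1.97 (Wif1, WB1P) and -2.20 to 0.37 (Wif1, WB1P-Myc), and Sfrp1 in WB1P-Myc was -0.05 without the 2 mice marked 8x8. For WB1P-Myc against NFs in CD26− cells, Wif1 ranged from -1.74 to 0.02 and Dkk3 was -0.01 without the 2 mice marked 8x8. Between the models, Wif1 ranged from -0.40 to 2.18 in CD26− cells, and in CD26+ cells Frzb from -0.79 to 0.04, Sfrp2 from -0.22 to 0.14, Dkk2 from -0.14 to 0.24, Dkk3 from -0.28 to 0.12, Wif1 from -1.74 to 0.67 and Sfrp4 from -0.33 to 0.07. For the CD26 difference of WB1P against control, Sfrp2 ranged from -0.09 to 0.64, Dkk2 from -0.18 to 0.42 and Sfrp4 from -0.92 to 0.30, with 0.35 under the replicate block. For WB1P-Myc against control Sfrp2 ranged from -0.52 to 0.05. For WB1P-Myc against WB1P, Wif1 ranged from -2.66 to 0.36 and Frzb from -0.34 to 0.73, and Frzb was 0.01 by DESeq2's Wald test, 0.53 under the replicate block and 0.74 without the 2 mice marked 8x8. For En1 in CD26− cells Wif1 ranged from -1.04 to 0.04. For En1 in CD26+ cells Sfrp4 ranged from -0.07 to 0.07 and Dkk3 from -0.18 to 0.03, and without the 2 mice marked 8x8 Sfrp4 was -0.03, Dkk3 0.17 and Dkk2 -0.03.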
